A study of Mus musculus with 26 samples.

Results

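The fibroblast growth factor (FGF) pathway was followed through 10 genes: the ligand gene Fgf4, the receptor genes Fgfr1, Fgfr2, Fgfr3 and Fgfr4, the feedback inhibitor genes Spry1, Spry2, Spry4 and Dusp6, and the target gene Etv5. All 10 were found among the 21757 genes with a value, by taking every probe set whose only gene symbol was that of a member. They had 164 of the 306069 probe sets that carry a single symbol: 32 for Fgfr1, 29 for Fgfr2, 28 for Fgfr3, 22 for Fgfr4, 19 for Etv5, 11 for Spry1, 9 for Fgf4, 6 for Dusp6, 5 for Spry4 and 3 for Spry2. No probe set of a member carried a second symbol. A gene's value is the median, on each array, of its brighter probe sets, meaning the upper 50% (rounded up) by mean over all arrays, and all values are on the log2 scale, on which a difference of 1 is a 2-fold change.

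The series holds 26 mouse samples, each on its own Affymetrix Mouse Exon 1.0 ST array, a platform that reads most exons of a gene with separate probe sets. The labels give 14 samples the strain 129S2/SvPas (titles ES1 to ES14) and 12 the strain C57BL/6 (titles ES15 to ES26), both of them inbred mouse strains. Every sample is described as an embryoid body cell, with a source that abbreviates ES and EB, and no label gives a cell line, a genotype, a treatment, a day of culture or an age. The design text states that technical replicates were not made, but nothing says that the samples came from separate cultures, so the p-values cover no more than the spread among these arrays, which may be technical.

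The strain label joins arrays that differ widely. ES13 and ES14 share the 129S2/SvPas label with ES1 to ES12, but for Fgfr1, Fgfr2, Spry1 and Spry4 they lay outside the range of ES1 to ES12 and within or above that of the C57BL/6 samples. All 15 measured myeloid markers (17 listed) had a median above that of the median gene in ES1 to ES12, with a mean marker value of 11.21 to 12.34 on these arrays. That mean was 5.61 to 5.86 on ES13 and ES14 and 5.41 to 6.94 on ES15 to ES26. Chil3, a protein of granulocytes and macrophages, had values of 11.45 to 13.09 in ES1 to ES12 and no higher than 3.65 elsewhere. Of 14 naive pluripotency markers, 2 passed the median gene in ES1 to ES12, 8 in ES13 and ES14, and 13 in ES21 to ES24. Utf1, a pluripotency-associated chromatin protein, lay at 4.18 to 5.88 in ES1 to ES12, and at 11.82 to 12.49 in ES21 to ES24. Members are therefore described over 5 runs of consecutive titles, ES1 to ES12, ES13 to ES14, ES15 to ES20, ES21 to ES24 and ES25 to ES26. No label defines these runs, they were drawn with results of these data known, and no test was made between them.

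FGFs are secreted proteins that bind receptor tyrosine kinases on the cell surface together with heparan sulfate. The activated receptor recruits adaptor proteins and switches on Ras and the kinases Raf, Mek and Erk. Erk induces ETS transcription factors of the Etv1, Etv4 and Etv5 group and, with them, genes whose products damp the signal: Sprouty proteins act between receptor and Raf, and Dusp6 removes phosphate from Erk. In mouse ES cells Fgf4 is the main autocrine ligand and acts largely through Fgfr1 and Fgfr2 to release cells from naive pluripotency.

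Sequences upstream of transcription starts are shown for Dusp6, Fgf4 and Etv5, as examples with and without a motif. They are RefSeq sequences of the build GRCm38.p6, each the 250 bases before the outermost annotated start of the gene, 5′ to 3′ on the gene's strand. Capitals mark CGGAA, or its reverse complement TTCCG, a core that ETS factors such as Etv5 recognise.
Dusp6, chr10:99262981-99263230, plus strand: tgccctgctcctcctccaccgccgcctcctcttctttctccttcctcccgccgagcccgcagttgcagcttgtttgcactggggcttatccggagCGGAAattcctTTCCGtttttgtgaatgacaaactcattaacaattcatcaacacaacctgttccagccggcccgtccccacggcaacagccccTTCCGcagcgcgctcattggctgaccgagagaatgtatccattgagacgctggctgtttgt
Fgf4, chr7:144861136-144861385, plus strand: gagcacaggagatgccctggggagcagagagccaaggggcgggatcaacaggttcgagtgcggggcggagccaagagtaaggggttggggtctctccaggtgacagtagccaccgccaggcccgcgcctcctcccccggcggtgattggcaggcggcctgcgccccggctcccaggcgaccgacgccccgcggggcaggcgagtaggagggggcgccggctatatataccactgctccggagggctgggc
Etv5, chr16:22439571-22439820, minus strand: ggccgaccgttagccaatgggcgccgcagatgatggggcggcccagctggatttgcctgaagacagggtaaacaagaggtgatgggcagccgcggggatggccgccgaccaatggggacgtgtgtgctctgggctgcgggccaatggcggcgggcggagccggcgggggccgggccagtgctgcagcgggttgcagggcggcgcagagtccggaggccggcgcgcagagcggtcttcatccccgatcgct
The Dusp6 stretch holds 3 matches, which start 155, 144 and 61 bases before the transcription start, and the Fgf4 and Etv5 stretches hold none. Of the 8 members in the promoter table (all but Fgfr1 and Spry4), Fgfr4 is the only other with a match, 177 bases before its start. Fgfr4, with a match, and Fgf4 and Etv5, without one, had their highest run medians in ES21 to ES24. The Dusp6 gene value had its highest run median in ES25 to ES26, 11.12 against 10.77 in ES21 to ES24. Of the 6 Dusp6 probe sets, 3 were highest in each of these 2 runs. A link between the motif and the members' values was not tested. On both strands together the motif occurs in 25.2% of the 32851 stretches of that length in the table, which holds several starts for some genes. A match is a run of letters and not a measured binding site, and where there is none, the letters are only absent from this window.

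Across the strain labels, Fgfr1, Fgfr2, Fgfr3, Spry1 and Spry4 were lower in 129S2/SvPas than in C57BL/6 samples, and no member was higher. These are 5 of the 9 members with at least 4 probe sets, the minimum for the test. Over all 18341 genes tested 43.2% passed the same threshold (limma, Benjamini-Hochberg adjusted p under 0.05), 21.1% higher and 22.1% lower in 129S2/SvPas, so a call in this comparison is common. Folds were 6.95 for Fgfr1, 5.74 for Fgfr2, 3.82 for Spry4, 1.77 for Fgfr3 and 1.63 for Spry1. The median difference of the 9 members was -0.71, against -0.001 over all genes. Taken singly, in a test added after the data were seen, 104 of the members' 164 probe sets were lower and none higher, where 38.7% of all probe sets with a single symbol were called, 20.6% lower and 18.1% higher. By gene 31 of 32 were lower for Fgfr1, 26 of 29 for Fgfr2, 22 of 28 for Fgfr3, 6 of 9 for Fgf4, 6 of 11 for Spry1, 5 of 22 for Fgfr4 and all 3 and all 5 for Spry2 and Spry4, and none for Dusp6 and Etv5. Without ES1 to ES12 no member was called and 1 of 9 had an unadjusted p under 0.05, at 2 arrays labelled 129S2/SvPas and 12 labelled C57BL/6. In that setting 1 gene of all passed limma's threshold and 1814 had an unadjusted p under 0.05. All 15 myeloid markers tested were higher in 129S2/SvPas and 13 of 14 naive pluripotency, 12 of 13 fibroblast, 6 of 9 embryonic erythroid and 1 of 10 primitive streak markers lower. The fibroblast marker Thy1 and the embryonic erythroid marker Lmo2 were called higher, by 3.77 and 2.73 on the log2 scale. The part of cell makeup in the members' differences was not tested. In bulk RNA, fewer cells of a type and less RNA per cell cannot be told apart, nor can the strain and an unrecorded batch, since the strain changes once along the titles.

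**Figure D1:**
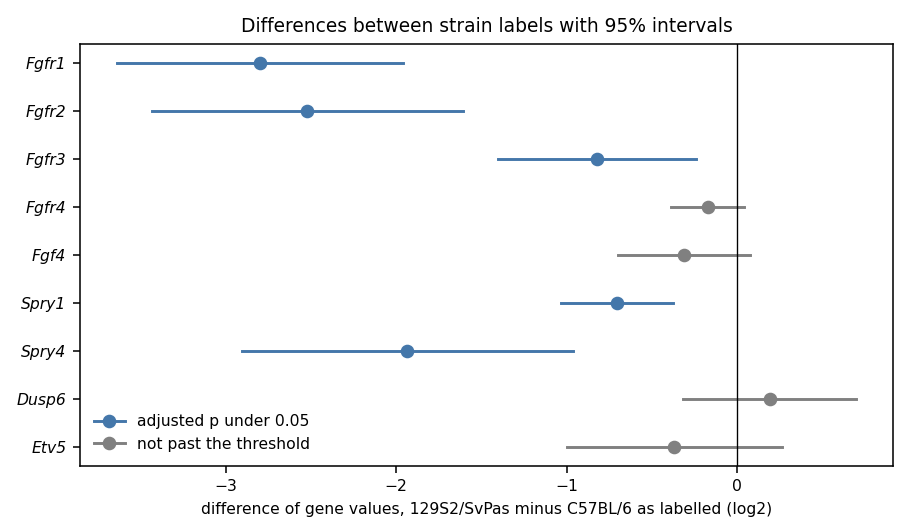
Difference of gene values between samples labelled 129S2/SvPas and C57BL/6 (x axis, log2) for the 9 tested members (rows). Points are estimates and lines their 95% intervals, and blue marks an adjusted p under 0.05. Fgfr1 and Fgfr2 lie farthest left, at -2.80 and -2.52, and the intervals of Fgfr4, Fgf4, Dusp6 and Etv5 cross 0.

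The ligand Fgf4 was highest in ES21 to ES24. Its gene values there were 8.67, 8.58, 9.47 and 9.24, above those of all other arrays, on which they lay between 6.98 and 8.46. Of all tested genes 2.38% were higher on these 4 arrays than on every other array, and among the members Fgf4, Spry4 and Etv5 were. The other 4 runs could not be put in order by the Fgf4 gene value, since their medians lay between 7.91 and 7.97 and their values overlapped. In these runs the gene value was nearly that of a single probe set, 5444551. Its run medians relative to the gene value lay between -0.05 and 0.00 there. Between the strain labels Fgf4 averaged 7.96 ± 0.37 in 129S2/SvPas samples (SD, n = 14) and 8.27 ± 0.60 in C57BL/6 samples (SD, n = 12). The difference of -0.31 ± 0.19 (SE, 95% interval -0.70 to 0.07) did not pass the test (limma adjusted p = 0.19).

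The Fgf4 probe sets did not behave alike, and the gene value hides most of the variation. Of the 5 brighter ones, probe sets 4738529 and 5444551 hardly moved, with medians by run between 8.21 and 8.73 for 4738529 and between 7.89 and 8.28 for 5444551. The other brighter ones, 4705449, 4992033 and 5433602, were highest in ES21 to ES24. Among the 4 dimmer ones, probe set 5316036 read 9.76, 9.84, 10.69 and 10.15 in ES21 to ES24, and 7.82 and 5.65 in ES13 and ES14. It read 3.94 to 5.42 in ES15 to ES20, 4.34 and 5.28 in ES25 and ES26, and 1.81 to 2.88 in ES1 to ES12. Its median in ES21 to ES24 was 10.00 and that in ES1 to ES12 was 2.48, and none of the 5 ranges overlapped except those of ES15 to ES20 and ES25 to ES26. Probe set 5069384 had the same order of runs at its ends, with a median of 10.16 in ES21 to ES24 and 3.81 in ES1 to ES12. In all, 8 of the 9 probe sets had their highest run median in ES21 to ES24 and 7 their lowest in ES1 to ES12. A gene value taken as the median over all 9 probe sets gave a strain difference of -1.42 (limma adjusted p = 0.00319), and their mean gave -1.30 (adjusted p = 0.00305), so the call for Fgf4 turned on the summary. None of the 6 Fgf4 probe sets tested relative to the gene was called, where 1029 of the 156023 tested in all genes were. Without ES13 and ES14 1 was lower, while 3461 were called in all genes.

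**Figure D2:**
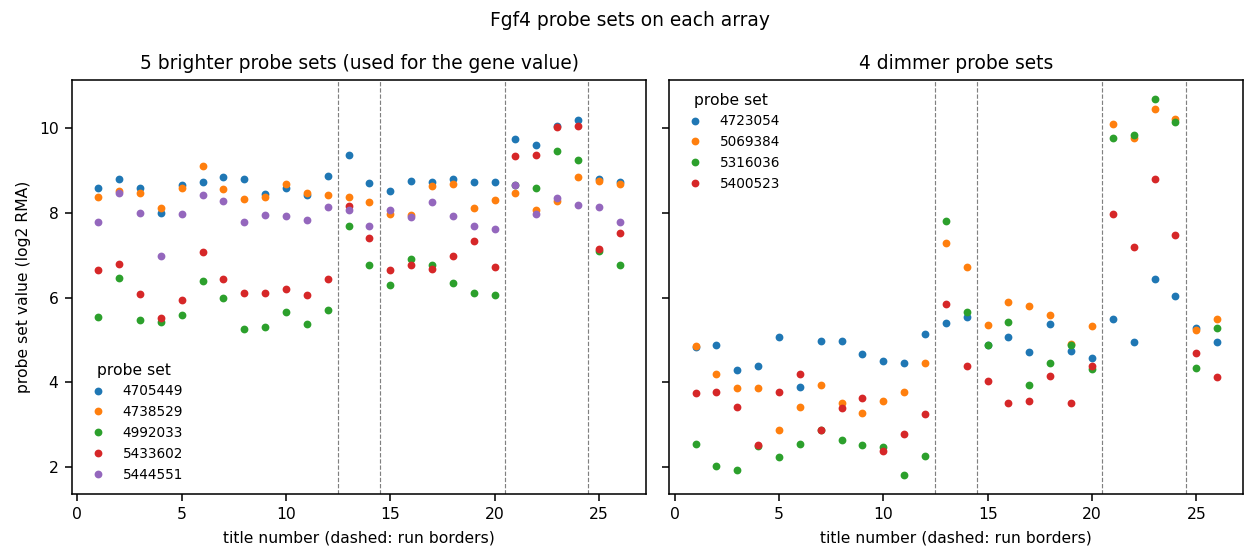
Values of the 9 Fgf4 probe sets (y axis, log2 RMA) on each array by title number (x axis, dashed lines at the borders of the title runs), with the 5 brighter probe sets on the left and the 4 dimmer ones on the right. Probe sets 4738529 and 5444551 are nearly level, and 5316036 lies between 9.76 and 10.69 in ES21 to ES24, against 1.81 to 2.88 in ES1 to ES12.

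Fgfr1, the receptor most used by pluripotent cells, was low in ES1 to ES12 and nearly constant elsewhere. Its range was 6.19 to 8.64 in ES1 to ES12 (median 6.90), and it read 10.61 and 10.57 in ES13 and ES14, between 10.39 and 10.77 in ES15 to ES20, between 10.15 and 10.75 in ES21 to ES24, and at 10.87 and 10.40 in ES25 and ES26. The ranges of the last 4 runs overlap, and ES1 to ES12 lie below all of them. The medians of ES1 to ES12 and ES15 to ES20 differed 12.1-fold. Of all tested genes 6.42% were lower in ES1 to ES12 than on every other array, and 4 of the 9 tested members (Fgfr1, Fgfr2, Spry1 and Spry4) were. By strain label Fgfr1 averaged 7.72 ± 1.48 in 129S2/SvPas samples (SD, n = 14) and 10.52 ± 0.21 in C57BL/6 samples (SD, n = 12). The difference was -2.80 ± 0.41 (SE, 95% interval -3.64 to -1.96; limma adjusted p = 4.39e-06). Without ES1 to ES12 it was 0.07 (limma adjusted p = 0.933).

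Among ES1 to ES12 themselves, Fgfr1 spread over 2.45 log2 units, against 0.72 over the 14 other arrays. ES1 and ES2 read 6.73 and 6.43, ES3 read 8.64, and ES4, ES5, ES6 and ES7 read 6.42, 6.29, 6.70 and 6.19. ES8 read 7.08, and ES9, ES10, ES11 and ES12 read 7.91, 8.40, 8.27 and 7.85. The spread was shared by most of the gene's probe sets. Counts of these include the 16 brighter ones that make up the gene value, so they are not independent of it. On ES3, 31 of the 32 Fgfr1 probe sets lay above their own median over ES1 to ES12, on ES9 27 did, and on each of ES10, ES11 and ES12 28 did. On ES4, ES5 and ES7 the counts were 3, 2 and 5 of 32, on ES1 and ES6 they were 8, on ES2 10 and on ES8 14. The mean myeloid marker value was 12.17 on ES3, the array with the highest Fgfr1 among the 12, and 11.60 on ES7, the one with the lowest. It was 11.91 to 12.17 on ES3 and ES9 to ES12, and 11.21 to 12.34 on the other arrays of this run. The highest value was on ES4, where Fgfr1 was 6.42. The mean fibroblast marker value was 5.980 to 6.455 on ES3 and ES9 to ES12, and 5.655 to 6.264 on the other arrays of this run. The part of cell makeup in this spread was not tested. On ES3 and ES7, Fgfr2 read 4.78 and 5.23, Fgfr3 read 7.00 and 6.89, and Fgfr4 read 6.06 and 6.27.

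**Figure D3:**
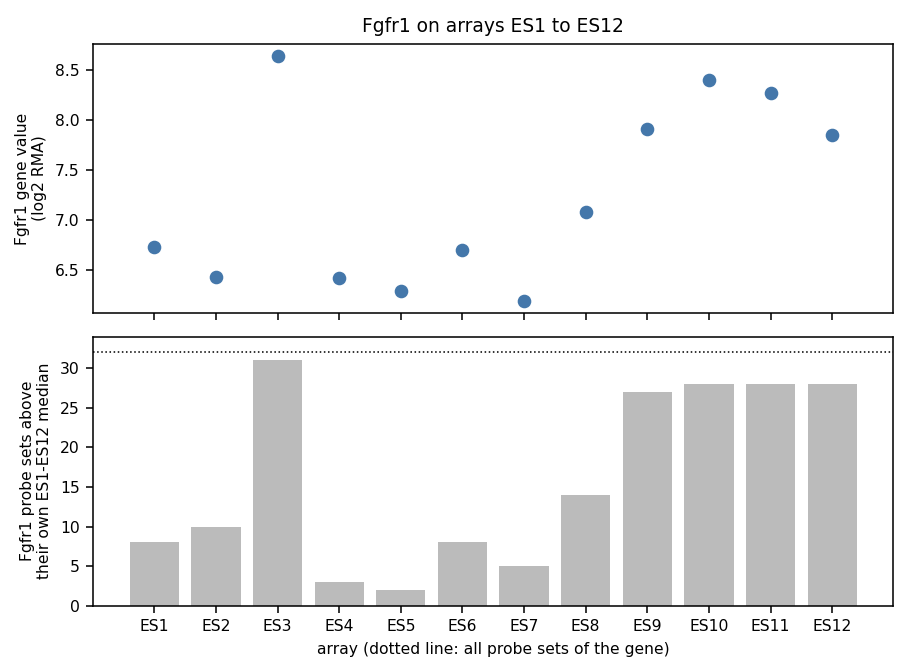
Fgfr1 on the 12 arrays ES1 to ES12 (x axis). Upper panel, gene value (log2 RMA); lower panel, how many of the 32 Fgfr1 probe sets lay above their own median over these arrays. ES3 and ES9 to ES12 have gene values of 7.85 or more and counts of 27 to 31, and the other arrays have counts of 14 or fewer.

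Of the 32 Fgfr1 probe sets 31 had their lowest run median in ES1 to ES12. The exception, and the brightest of them, was probe set 5333109, with a range of 10.24 to 11.07 in ES1 to ES12 and between 10.21 and 11.18 on the other arrays. Relative to the gene value of the same array it averaged 2.91 ± 1.47 in 129S2/SvPas samples (SD, n = 14) and 0.31 ± 0.29 in C57BL/6 samples (SD, n = 12). This difference of 2.60 ± 0.41 (SE) exceeded 1 log2 unit in limma's test against that minimum (adjusted p = 0.0497). It was the only call among the 30 Fgfr1 probe sets tested, where 0.66% of the 156023 probe sets tested in all genes were called. The call sat at the threshold: relative to a mean over all probe sets the difference was 2.27 (adjusted p = 0.0916). Without ES1 to ES12 it was -0.10 (adjusted p = 1). Probe sets 5210884 and 5405250 followed in size, at 1.89 ± 0.32 and 1.77 ± 0.30 (SE), and did not pass (adjusted p = 0.367 and 0.588). Both were lower in ES1 to ES12 than elsewhere (medians 7.62 and 6.45), only by less than the gene. Without ES13 and ES14, 5 Fgfr1 probe sets passed in place of 1, while calls among all 156023 probe sets rose from 1029 to 3461.

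Fgfr2, whose product is the other main receptor for Fgf4 in the early embryo, was highest in ES13 and ES14 and lowest in ES1 to ES12. It read 8.98 and 9.22 in ES13 and ES14, 8.24 to 8.88 in ES15 to ES20, 7.14 to 8.11 in ES21 to ES24, 7.59 and 7.52 in ES25 and ES26, and 4.43 to 5.47 in ES1 to ES12. ES13 and ES14 were thus above every other array, as 1.21% of all tested genes were, and ES15 to ES20 lay next. ES25 and ES26 fell within the range of ES21 to ES24 and could not be ordered against it. The medians of ES13 to ES14 and ES1 to ES12, both of one strain label, differed 17.7-fold. The strain means were 5.56 ± 1.52 in 129S2/SvPas samples (SD, n = 14) and 8.08 ± 0.60 in C57BL/6 samples (SD, n = 12). The difference was -2.52 ± 0.45 (SE; limma adjusted p = 4.93e-05), and without ES1 to ES12 it was 1.02, with the sign turned (limma adjusted p = 0.407).

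The Fgfr2 probe sets followed the gene with a few exceptions. Of 29, 27 had their highest run median in ES13 and ES14, and 27 their lowest in ES1 to ES12. In 4 of the 29 the run medians spanned less than 1 log2 unit. Probe set 4784408 gave the widest contrast in this description, with medians of 9.70 in ES13 and ES14, 9.12 in ES15 to ES20, 7.74 in ES21 to ES24, 7.44 in ES25 and ES26, and 2.81 in ES1 to ES12. Probe sets 4523298 and 4744643 stayed nearly level. The range of 4523298 was 9.35 to 10.17 in ES1 to ES12 and 9.67 to 10.36 elsewhere, and that of 4744643 was 7.53 to 8.01 in ES1 to ES12 and 7.62 to 8.61 elsewhere. The mean of Fgfr2 lay under that of the median gene, so none of its probe sets entered the test within genes.

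Fgfr3, a receptor best known from cartilage and neural progenitors, was high in ES15 to ES20. By title from ES15 to ES20 it read 7.51, 8.03, 8.67, 9.06, 9.31 and 9.50, and on the 20 other arrays it lay between 6.59 and 7.22. Of all tested genes 1.76% were higher on these 6 arrays than on every other array, and Fgfr3 was the one member among them. The other runs all overlapped ES1 to ES12, with medians between 6.74 and 7.06, and ES25 and ES26 (6.72 and 6.76) lay just under the 6.80 to 7.22 of ES21 to ES24. On the same 6 arrays the mean of 13 fibroblast markers read 8.47, 9.44, 9.80, 10.19, 10.37 and 10.26, with 12 of the 13 above the median gene. It was 5.66 to 8.88 on the other arrays, with 8.88 on ES25 and 8.66 on ES26, where Fgfr3 was low. Lum, a collagen-binding proteoglycan of fibroblasts, lay between 4.38 and 11.01 in ES15 to ES20 and no higher than 4.36 elsewhere. The mean of 9 embryonic erythroid markers was 11.03, 11.25, 10.84, 10.42, 9.69 and 9.18 on ES15 to ES20 and 9.59 on ES14. The part of either cell type in the Fgfr3 values was not tested. By strain label Fgfr3 averaged 6.95 ± 0.18 in 129S2/SvPas samples (SD, n = 14) and 7.77 ± 1.09 in C57BL/6 samples (SD, n = 12). The difference was -0.82 ± 0.28 (SE; limma adjusted p = 0.0197), and without ES1 to ES12 it was -0.71 (limma adjusted p = 0.814).

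Of the 28 Fgfr3 probe sets 27 had their highest run median in ES15 to ES20. In 4 of the 28 the run medians spanned less than 1 log2 unit, so some of these are near ties. Probe set 5040334 read 7.51, 8.56, 9.67, 10.34, 10.50 and 11.11 on ES15 to ES20, and its run medians elsewhere were 4.79 in ES1 to ES12, 6.85 in ES13 and ES14, 5.70 in ES21 to ES24 and 6.23 in ES25 and ES26. Relative to the gene it averaged -1.85 ± 0.89 in 129S2/SvPas samples (SD, n = 14) and -0.03 ± 1.12 in C57BL/6 samples (SD, n = 12). The difference of -1.82 ± 0.38 (SE) did not exceed the minimum (limma adjusted p = 1). Probe sets 5251046 and 4504636 were next, at -1.30 ± 0.33 and -1.01 ± 0.25 (SE), with the same outcome. Fgfr3 entered this test only through ES15 to ES20: its mean over the 26 arrays was 7.330, against a limit of 7.329 set by the median gene, and its run medians elsewhere were 7.06 or less.

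Fgfr4, a receptor of endoderm and muscle lineages, varied little. It ranged over 5.74 to 6.65 in ES1 to ES12 and read 6.48 and 6.61 in ES13 and ES14, between 6.35 and 6.62 in ES15 to ES20, between 6.27 and 6.87 in ES21 to ES24, and at 6.37 on both ES25 and ES26. The other 4 runs all overlapped ES1 to ES12, and no order could be given. In 18 of its 22 probe sets the run medians spanned less than 1 log2 unit. By strain label the means were 6.34 ± 0.29 in 129S2/SvPas samples (SD, n = 14) and 6.51 ± 0.19 in C57BL/6 samples (SD, n = 12). The difference of -0.17 ± 0.10 (SE) had a 95% interval of -0.39 to 0.04 (limma adjusted p = 0.187). When the gene value was the mean of all 22 probe sets it was -0.19 and passed (limma adjusted p = 0.0421).

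**Figure D4:**
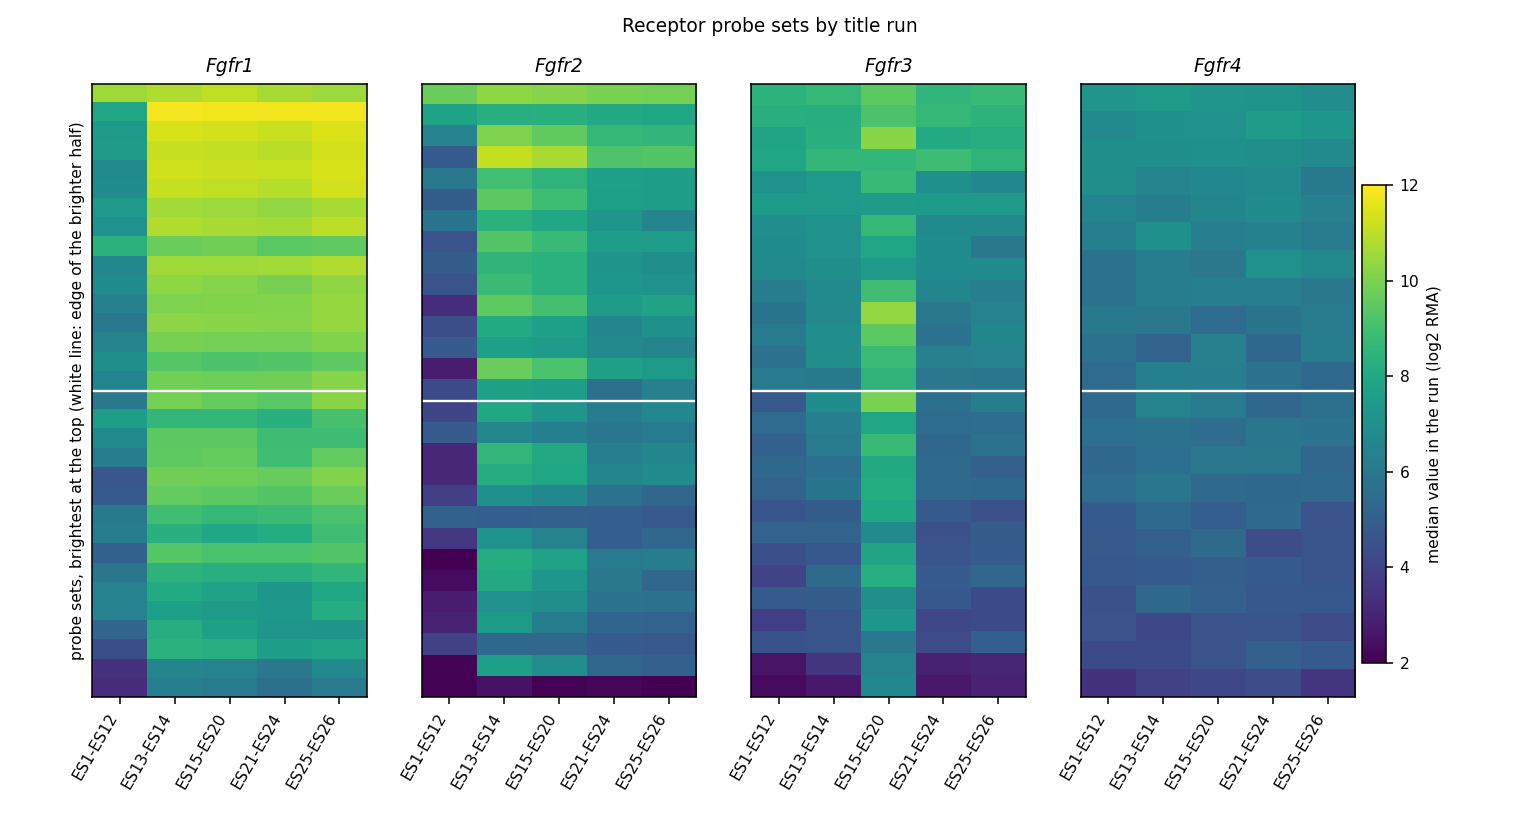
Median value (colour, log2 RMA) of every probe set (rows, brightest at the top, white line at the edge of the brighter part) of the 4 receptor genes in each title run (columns). Colours compare runs within a row. In Fgfr1 31 of 32 rows are lowest in ES1 to ES12. In Fgfr2 27 of 29 rows are highest in ES13 to ES14, and in Fgfr3 27 of 28 are highest in ES15 to ES20. The Fgfr2 and Fgfr3 counts include nearly level rows.

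Among the feedback inhibitors Spry4 had the widest range. It read 9.87, 10.17, 10.30 and 10.65 in ES21 to ES24, 9.11 and 7.96 in ES13 and ES14, 8.03 and 8.69 in ES25 and ES26, 6.63 to 7.72 in ES15 to ES20, and 5.47 to 6.29 in ES1 to ES12. ES21 to ES24 lay above all other arrays, as for 2.38% of all tested genes. ES15 to ES20 lay below the other runs outside ES1 to ES12 (2.39% of all tested genes). ES1 to ES12 lay lowest (6.42% of all tested genes), and ES13 to ES14 overlapped ES25 to ES26. The medians of ES21 to ES24 and ES1 to ES12 differed 16.8-fold, and all 5 probe sets had their highest median in ES21 to ES24 and their lowest in ES1 to ES12. The strain means were 6.39 ± 0.97 in 129S2/SvPas samples (SD, n = 14) and 8.32 ± 1.55 in C57BL/6 samples (SD, n = 12). The difference was -1.93 ± 0.47 (SE; limma adjusted p = 0.00161), and without ES1 to ES12 it was 0.22 (limma adjusted p = 0.972).

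Spry2 had its highest values in the same run. It read 11.17, 11.20, 11.17 and 11.10 in ES21 to ES24, 10.50 and 10.95 in ES25 and ES26, 10.44 and 9.64 in ES13 and ES14, 9.17 to 10.09 in ES15 to ES20, and 8.88 to 9.68 in ES1 to ES12. ES21 to ES24 lay above all other arrays, as they did for 2.38% of all tested genes. ES25 and ES26 came next, and the other 3 runs overlapped. With only 3 probe sets it was left out of the main test. Where the minimum was lowered to 1 probe set, Spry2 averaged 9.43 ± 0.38 in 129S2/SvPas samples (SD, n = 14) and 10.28 ± 0.82 in C57BL/6 samples (SD, n = 12), a difference of -0.85 ± 0.23 (SE; limma adjusted p = 0.00489).

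Spry1 was low in ES1 to ES12 and varied less elsewhere. It ranged over 6.27 to 7.29 in ES1 to ES12 and read 8.13 and 7.72 in ES13 and ES14, between 7.63 and 8.01 in ES15 to ES20, between 7.59 and 8.11 in ES21 to ES24, and at 7.38 and 7.33 in ES25 and ES26. ES25 and ES26 lay below the other arrays outside ES1 to ES12, as 6.37% of all tested genes did, and ES13 to ES24 overlapped. The strain means were 7.05 ± 0.50 in 129S2/SvPas samples (SD, n = 14) and 7.76 ± 0.26 in C57BL/6 samples (SD, n = 12). The difference was -0.71 ± 0.16 (SE; limma adjusted p = 0.000737), and without ES1 to ES12 it was 0.17 (limma adjusted p = 0.866). The 3 Sprouty genes thus had their highest run medians in different runs, ES21 to ES24 for Spry2 and Spry4 and ES13 to ES14 for Spry1, whose median there (7.92) was close to that in ES15 to ES20 (7.91).

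Dusp6, the phosphatase of Erk, was the inhibitor among the 4 whose lowest run median was not in ES1 to ES12. It lay between 9.36 and 11.61 there, at 10.92 and 11.31 in ES25 and ES26, between 10.51 and 10.97 in ES21 to ES24, at 10.88 and 9.39 in ES13 and ES14, and between 9.25 and 9.97 in ES15 to ES20. All 6 probe sets had their lowest run median in ES15 to ES20. The values of ES13 and ES14 differed by more than the whole range of ES21 to ES24, and ES1 to ES12 spanned nearly all values, so only ES15 to ES20 stood below ES21 to ES24 and ES25 to ES26 without overlap. The share of all genes with this separation was not counted. The strain means were 10.42 ± 0.61 in 129S2/SvPas samples (SD, n = 14) and 10.24 ± 0.71 in C57BL/6 samples (SD, n = 12). The difference was 0.19 ± 0.25 (SE), with a 95% interval of -0.32 to 0.70 (limma adjusted p = 0.574).

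Etv5, the ETS factor downstream of Erk, was highest in ES21 to ES24 and lowest in ES15 to ES20. It read 10.16, 10.27, 10.65 and 10.76 in ES21 to ES24, 9.91 and 9.02 in ES13 and ES14, 9.06 and 9.37 in ES25 and ES26, 7.79 to 9.10 in ES1 to ES12, and 7.97 to 8.44 in ES15 to ES20. ES21 to ES24 lay above all other arrays, ES15 to ES20 lay below all others outside ES1 to ES12, and the remaining runs overlapped. Of its 19 probe sets 18 had their highest run median in ES21 to ES24 and 17 their lowest in ES15 to ES20. Within ES13 to ES26, 2.39% of all tested genes were lower in ES15 to ES20 than on every other array, and Spry4 and Etv5 were among them. By strain label Etv5 averaged 8.75 ± 0.48 in 129S2/SvPas samples (SD, n = 14) and 9.11 ± 1.09 in C57BL/6 samples (SD, n = 12), a difference of -0.37 ± 0.31 (SE, 95% interval -0.997 to 0.26; limma adjusted p = 0.355). The 2 runs at the ends, ES21 to ES24 and ES15 to ES20, carry the same strain label, and their medians differed 4.83-fold.

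Fgf4, Spry2, Spry4 and Etv5 thus shared ES21 to ES24 as their highest run. The mean of 14 naive pluripotency markers was highest on these 4 arrays as well, at 10.38 to 10.94, against 5.38 to 8.32 on the other 22, and the part of pluripotent cells in the members' values was not tested. Among the receptors, Fgfr1 in ES21 to ES24 overlapped the 3 other runs outside ES1 to ES12, Fgfr2 was below ES13 to ES14 and ES15 to ES20, and Fgfr3 was at its low level. Fgfr4 had its highest run median there too, 6.74 against 6.36 to 6.55 in the other runs, with overlapping ranges.

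**Figure D5:**
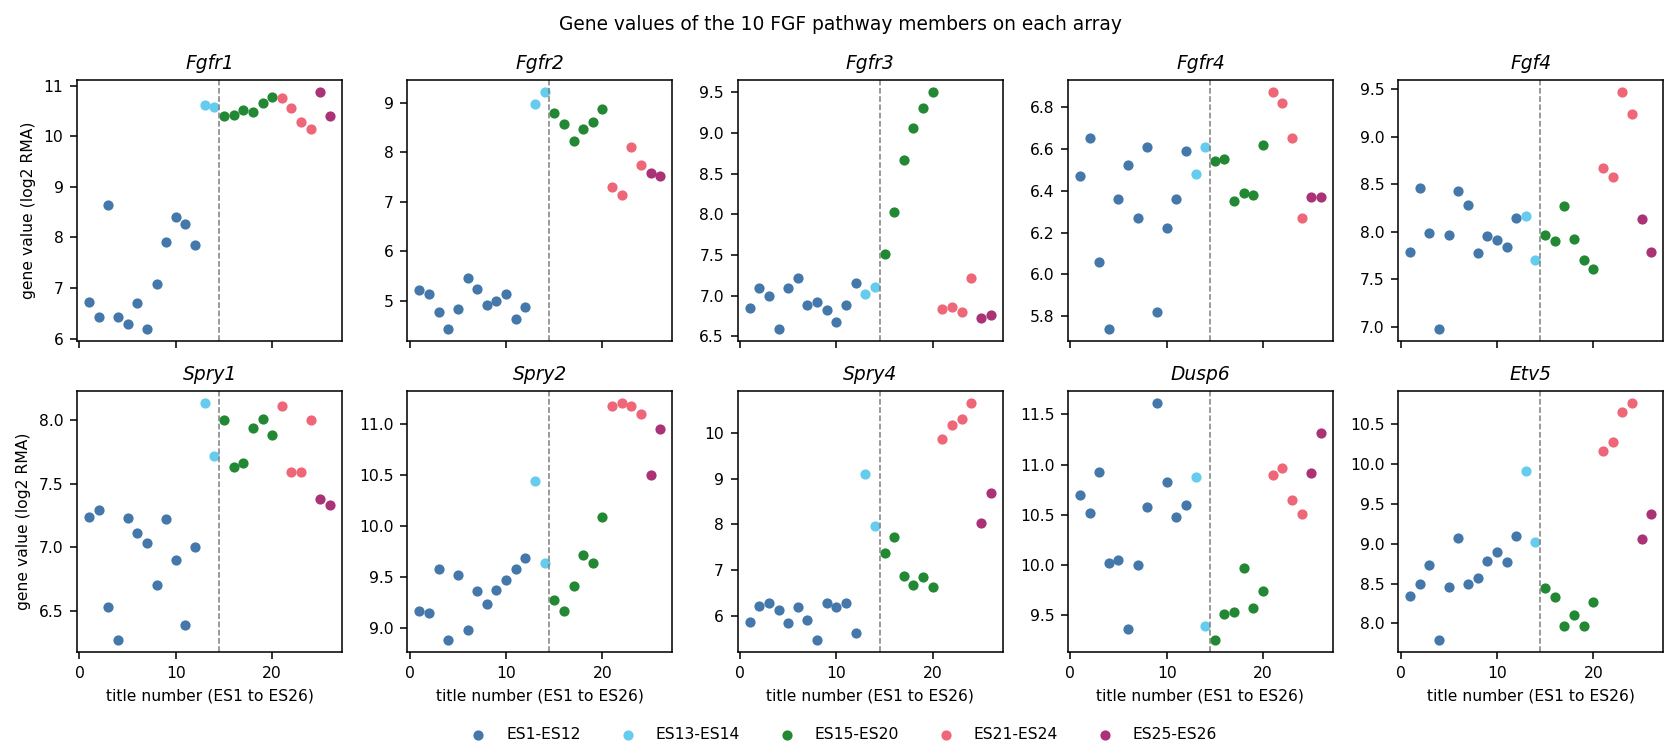
Gene value (y axis, log2 RMA, a separate scale for each gene) of the 10 members on every array by title number (x axis), coloured by title run; the dashed line separates the samples labelled 129S2/SvPas (left) from those labelled C57BL/6 (right). Fgfr1, Fgfr2, Spry1 and Spry4 are lowest in ES1 to ES12, Fgfr3 reaches 9.50 in ES15 to ES20, and Fgf4, Spry2, Spry4 and Etv5 are highest in ES21 to ES24.

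The rest of the pathway was read from 7 lists holding 112 genes, of which 107 were tested. Between the strain labels 15 were higher and 52 lower in 129S2/SvPas samples, and 40 did not pass (limma, adjusted over all genes), with a median difference of -0.29, against -0.001 over all genes. Over all 18341 genes 43.2% were called, 21.1% higher and 22.1% lower, and no list was tested as a set. Of 11 co-receptors and modulators 10 were lower and none higher, with a median of -1.03, and of 20 genes for heparan sulfate synthesis and carriers 16 were lower and none higher, with a median of -1.42. Cdh2 (N-cadherin, which binds Fgfr1) averaged 6.79 ± 1.79 in 129S2/SvPas samples (SD, n = 14) and 10.44 ± 0.57 in C57BL/6 samples (SD, n = 12), a difference of -3.65 ± 0.51 (SE; limma adjusted p = 2.5e-06). The adhesion molecule Ncam1 fell by 2.52 on the log2 scale and Flrt2, a membrane protein that binds FGF receptors, by 2.24. Among the heparan sulfate carriers, the glypican Gpc3 fell by 3.45, its relative Gpc4 fell by 3.07 and the syndecan Sdc2 fell by 3.15.

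Of 21 other FGF ligands 1 was higher, 7 were lower and 13 did not pass, a share called below the 43.2% of all genes. Fgf7, a mesenchymal ligand of the Fgfr2 splice form in epithelia, averaged 4.44 ± 0.48 in 129S2/SvPas samples (SD, n = 14) and 6.84 ± 2.30 in C57BL/6 samples (SD, n = 12), a difference of -2.41 ± 0.59 (SE; limma adjusted p = 0.00169). Its values were 10.11 and 10.25 in ES25 and ES26 and 7.14 to 9.16 in ES21 to ES24, and no other array passed 5.76. Fgf5, a marker of the primed epiblast, fell by 1.09 and Fgf10 by 1.08. Neither was lower in all 129S2/SvPas samples: the highest values of both over the 26 arrays, 8.10 for Fgf5 and 8.88 for Fgf10, were on ES13 or ES14.

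Inside the cell the differences ran in both directions. Of 16 adaptors of the receptor complex 5 were higher and 8 lower, where 43.2% of all genes were called in either direction. The docking protein Gab1 averaged 8.18 ± 0.96 in 129S2/SvPas samples (SD, n = 14) and 11.09 ± 0.56 in C57BL/6 samples (SD, n = 12), a difference of -2.91 ± 0.30 (SE; limma adjusted p = 5.9e-08). Its relative Gab2 rose by 1.67 ± 0.34 (SE; limma adjusted p = 0.00028), and the adaptor Crk fell by 1.41. Of 11 genes of the Ras and MAP kinase cascade that were tested (15 listed), 6 were higher and 1 lower, with a median of 0.29. The largest were Rps6ka1, a kinase activated by Erk, at 1.59 ± 0.18, Mapk3, which encodes Erk1, at 1.13 ± 0.16, and the scaffold Ksr1 at 0.59 ± 0.14 (SE). Of 12 other feedback inhibitors 2 were higher and 5 lower. Il17rd, a membrane inhibitor of FGF receptors also called Sef, fell by 1.98, the nuclear phosphatase Dusp4 fell by 1.75 and Dusp2, a phosphatase of immune cells, rose by 1.61 ± 0.26 (SE; limma adjusted p = 1.34e-05). Of 16 other Erk target genes tested (17 listed), 1 was higher and 5 lower, again a share below that of all genes, and the differences were -2.33 ± 0.60 for Ccnd1 (cyclin D1), -1.38 ± 0.33 for Etv1 and 1.29 ± 0.52 for Ier3 (SE). Ier3 was called in 10 of the 26 fits that left out an array, with adjusted p up to 0.0833. None of the 21 genes named from these lists was called without ES1 to ES12, a setting in which 1 of all 18341 genes was called.

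Il17rd and Gpc3 differed between runs of one strain label as the members did. Il17rd was at 9.04 to 9.55 in ES13 and ES14, 8.34 to 8.96 in ES21 to ES24, 6.87 to 8.19 in ES15 to ES20, 7.12 to 7.66 in ES25 and ES26, and 4.97 to 5.51 in ES1 to ES12. Gpc3 was at 11.37 to 11.52 in ES13 and ES14, 10.86 to 11.41 in ES15 to ES20 and 7.90 to 9.52 in ES21 to ES24. It was at 5.05 to 5.68 in ES25 and ES26, near its 3.91 to 5.46 in ES1 to ES12.

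For each tested member with an SD of at least 0.5 over the 26 arrays, the 3 genes with the closest profile were found by the mean absolute difference of values after each gene's own mean was subtracted. For Fgfr1 they were Cttn, Igf2bp2 and Nckap1 (0.38, 0.40 and 0.42 log2 units), for Fgfr2 Ptpn13, Sox11 and Cers4 (0.25, 0.29 and 0.30), and for Fgfr3 Sdk1, Klhl29 and Nckap5 (0.14, 0.16 and 0.17). Sox11, for instance, had a median of 10.85 in ES13 and ES14 and 6.56 in ES1 to ES12. Those of Spry4 were Sema3e, F2rl1 and Zscan10 (0.41, 0.42 and 0.43), and Zscan10, a factor of pluripotent cells, had a median of 10.00 in ES21 to ES24 and 6.44 in ES1 to ES12. Etv5 was nearest to Got1, D1Pas1 and Btbd11 (0.29, 0.33 and 0.33), Dusp6 to Rbpj, Ahr and Pim3 (0.29, 0.31 and 0.31), Fgf4 to Islr2, Nos1 and Slc5a1 (0.19, 0.20 and 0.21) and Spry1 to Xkr6, Pwwp2a and Usp27x (0.18, 0.19 and 0.20). No member was among the 3 nearest of another. Profiles were not scaled, so genes that vary by different amounts lie apart even where their order of arrays is alike. The SD over the 26 arrays was 0.50 for Fgf4 and 1.59 for Spry4. These likenesses were taken over the same 26 arrays and carry no test.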

How the data were processed

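RNA was amplified, converted to labelled cDNA and hybridised, per the labels' protocols. The authors deposited log2 values per probe set, made by RMA with the extended-exon setting of Affymetrix Expression Console, per the labels and the submitters' processing notes. Neither its version nor the genome build is given in the sources used here. The RMA method corrects background, brings the arrays to 1 distribution and summarises probes, and the log base was inferred from that convention and from the range of 0.831 to 15.6. The table held 631748 probe sets on 26 arrays with 0 missing values, array medians of 5.32 to 5.51 and 0 identical pairs of arrays. Arrays give no read depth; their number limits the precision.

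The platform annotation named 1 gene for 306069 probe sets. Of 21757 symbols, 3725 were updated to current ones through RefSeq and 285 were kept as given. Genes with at least 4 probe sets (18341) were fitted with limma 3.58.1 in R 4.3.3 (lmFit, eBayes with a trend, two-sided, Benjamini-Hochberg over all genes, threshold 0.05), 129S2/SvPas minus C57BL/6. Probe sets within genes (value minus gene value, for genes and probe sets brighter than their medians) went into limma's treat at a minimum difference of 1. The steps were tested on simulated data. The members, the pathway and marker lists and the title runs were chosen with earlier results of these data known. Named pathway genes are the 3 called genes of each list that differed most, and named markers 1 per list by range. Thy1 and Lmo2 were named besides, as markers called higher in lists that were mostly lower. Named probe sets of Fgfr1 and Fgfr3 are up to 3 per gene by size. Those of Fgfr2 and Fgf4 were picked from their values by run. Genes of the lists with fewer than 4 probe sets were not tested. The alternatives covered the gene summary, filters, normalization, the fit, thresholds and arrays left out.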

Additional observations from a re-analysis of the deposited data

How the results depend on the processing

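Leaving out any 1 array kept 5 members called, and over all genes 7536 to 8631 calls (7931 with all arrays). The 5 calls also stood with centring on the array median, quantile normalization, no trend, array weights and without ES13 and ES14. At a threshold of 0.01, 5818 genes and 4 members were called, and Fgfr3 was not. Without the dimmer 50% of genes 4841 genes and 3 of 6 members remaining in the test were called. A minimum difference of 1 in the gene comparison left 1094 genes and 2 members (Fgfr1 and Fgfr2). Without ES1 to ES12, 1 gene and 0 members passed, and signs turned for Fgfr1 (0.072), Fgfr2 (1.02), Spry1 (0.17), Spry4 (0.22), Fgf5 (0.58), Fgf10 (1.48), Cdh2 (0.36), Gpc3 (2.08), Gab2 (-0.38), Crk (0.092), Il17rd (1.51), Dusp4 (0.17), Ccnd1 (0.81), Ier3 (-1.76) and probe set 5333109 within Fgfr1 (-0.10), and, among members not called in either setting, for Etv5 (0.35), Dusp6 (-0.099) and Fgfr4 (0.032); only 2 arrays then carried the 129S2/SvPas label. Probe sets within genes passing the test numbered 1029, and 2414 with no filter on dim genes or probe sets, 36294 with no minimum difference, 3461 without ES13 and ES14, and 0 without ES1 to ES12. The cause of these changes was not tested, beyond the smaller number of genes or arrays that some settings hold. No paired analysis was possible because the labels give the strains no shared replicate numbers. The 14 and 12 arrays of the labels 129S2/SvPas and C57BL/6 limit the precision, and with no detection call in the table, low values such as those of Fgfr4 may lie near background.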

Other observations

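ES13 and ES14 differed in several members although they share a label and a run. Dusp6 read 10.88 on ES13 and 9.39 on ES14, Spry4 9.11 and 7.96, Etv5 9.91 and 9.02, and Spry2 10.44 and 9.64, while Fgfr1 read 10.61 and 10.57 and Fgfr3 7.02 and 7.11. The mean of 10 primitive streak markers lay between 7.59 and 9.01 on these 2 arrays and between 5.90 and 7.13 on all others. Mixl1, a factor of the primitive streak, lay between 8.93 and 10.95 there and no higher than 6.99 elsewhere. With 2 arrays these are values without a test.

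Hbb-bh1, an embryonic globin, lay between 9.74 and 12.67 in ES15 to ES20, the run with the highest Fgfr3 and the lowest Dusp6 median, and between 7.10 and 10.67 in ES13 and ES14. It was no higher than 4.25 on the other 18 arrays. The part of these cell types in the members' values was not tested.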
